A study of Caenorhabditis elegans with 10 samples.

Results

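The glutathione transferase (gst) and UDP-glucuronosyltransferase (ugt) genes of Caenorhabditis elegans were followed across 10 poly(A) RNA libraries of whole worms. They were chosen by name alone: every gene whose symbol in the expression table was gst or ugt followed by a number, with the transcript of the highest mean level standing for a gene that had several. This gave 108 genes, 43 gst and 65 ugt, of 40857 named genes. All 108 symbols matched a RefSeq locus of the same name.

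The series was designed to ask how the loss of math-33 changes the expression of DAF-16 target genes in worms with reduced insulin signalling. Each of 5 genotypes gave 1 library after a shift to 25 °C for 22 hr from the L3/L4 stage and 1 library of worms kept at 15 °C, all collected as L4 larvae or preadults from about 3000 worms. The genotypes were daf-16(mu86); daf-2(e1370), called daf-16 daf-2 below, daf-2(e1370); math-33(tm3561), called daf-2 math-33 below, daf-2(e1370), math-33(tm3561) and the wild type N2. daf-2(e1370) is a temperature-sensitive allele of the insulin/IGF-1 receptor gene, daf-16 encodes the FOXO transcription factor that this receptor restrains, and math-33 encodes a deubiquitylating enzyme. Of the 5 strains 3 carried daf-2(e1370). daf-2 single mutants were the comparison strain for both double mutants, and N2 was that for both single mutants. With 1 library per genotype and temperature, a difference between a pair of libraries has no replicate check.

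Glutathione transferases join the tripeptide glutathione to reactive or foreign molecules, and UDP-glucuronosyltransferases join a sugar from a UDP-sugar to them. Both steps belong to phase II of detoxification, and the conjugates then leave the cell through ABC transporters. In worms many of these enzymes are made in the intestine and hypodermis, the families have grown by local gene duplication, and members of each have been described as targets of the stress factors SKN-1 and DAF-16.

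Levels are given as FPKM, read fragments scaled to transcript length and library depth. The lengths in the table were coding lengths, so UTR reads were not divided out. The libraries held between 12.6 and 17.6 M read pairs (M, mega), inferred from the size of the FPKM steps. In the 4 libraries carrying math-33(tm3561), math-33 had between 13.9 and 15.9 FPKM, against between 59.8 and 79.3 FPKM in the other 6. The daf-16 transcript with the highest level in the table is a short 3′ one, so its 164 FPKM at 25 °C and 182 FPKM at 15 °C in daf-16 daf-2 worms do not check the mu86 deletion. RNA came from whole worms, so fewer cells of a type and less RNA per cell cannot be told apart. No marker list was without signal: intestine, hypodermis, muscle, pharynx, neuron, excretory cell, coelomocyte, germline, sperm and oocyte markers were all found above 1 FPKM in at least 1 library.

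Of the 108 genes, 96 reached 1 FPKM in at least 2 libraries and entered the comparisons, 36 gst and 60 ugt. The other 12 were gst-8, gst-14, gst-18, gst-32, gst-34, gst-37, gst-44, ugt-15, ugt-32, ugt-35, ugt-38 and ugt-59. All but gst-44, an omega-class gene that had 1.57 FPKM in daf-2 worms at 15 °C, were under 1 FPKM in every library. The spans of 30 of the 108 genes, gst-10 and ugt-26 among them, overlap that of another symbol in the table.

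The gst family was carried by a few abundant transcripts. Its 7 genes with a mean of 100 FPKM or more stood above 7 genes at 10 to 100 FPKM, 20 at 1 to 10 FPKM and 9 below 1 FPKM, and the median gene had 2.87 FPKM. The highest was gst-5, which had between 444 and 699 FPKM, although this value is read from a table transcript of 289 bases. The next were gst-7, with between 198 and 319 FPKM, and gst-42, with between 95.5 and 197 FPKM. gst-42 encodes a zeta-class enzyme, a class known for maleylacetoacetate isomerisation in tyrosine breakdown. The pi-class gst-1 had between 97.95 and 169 FPKM, and the other zeta-class gene, gst-43, between 5.18 and 12.4 FPKM. The 3 most abundant gst genes held between 49.3% and 58.6% of the summed gst FPKM of a library.

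The ugt family was flatter. It had 1 gene with a mean of 100 FPKM or more, 29 at 10 to 100 FPKM, 27 at 1 to 10 FPKM and 8 below 1 FPKM, with a median gene at 7.23 FPKM. The highest 3 by mean level were ugt-22, with between 82.9 and 167 FPKM, ugt-16, with between 22.6 and 123 FPKM, and ugt-63, with between 34.6 and 105 FPKM. The 3 most abundant ugt genes held between 22.4% and 27.2% of the summed ugt FPKM of a library. Summed gst levels were highest in daf-2 worms at 25 °C, at 2287 FPKM, and lowest in math-33 worms at 25 °C, at 1593 FPKM. Summed ugt levels were highest in daf-16 daf-2 worms at 15 °C, at 1419.9 FPKM, and lowest in math-33 worms at 25 °C, at 947 FPKM.

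**Figure D1:**
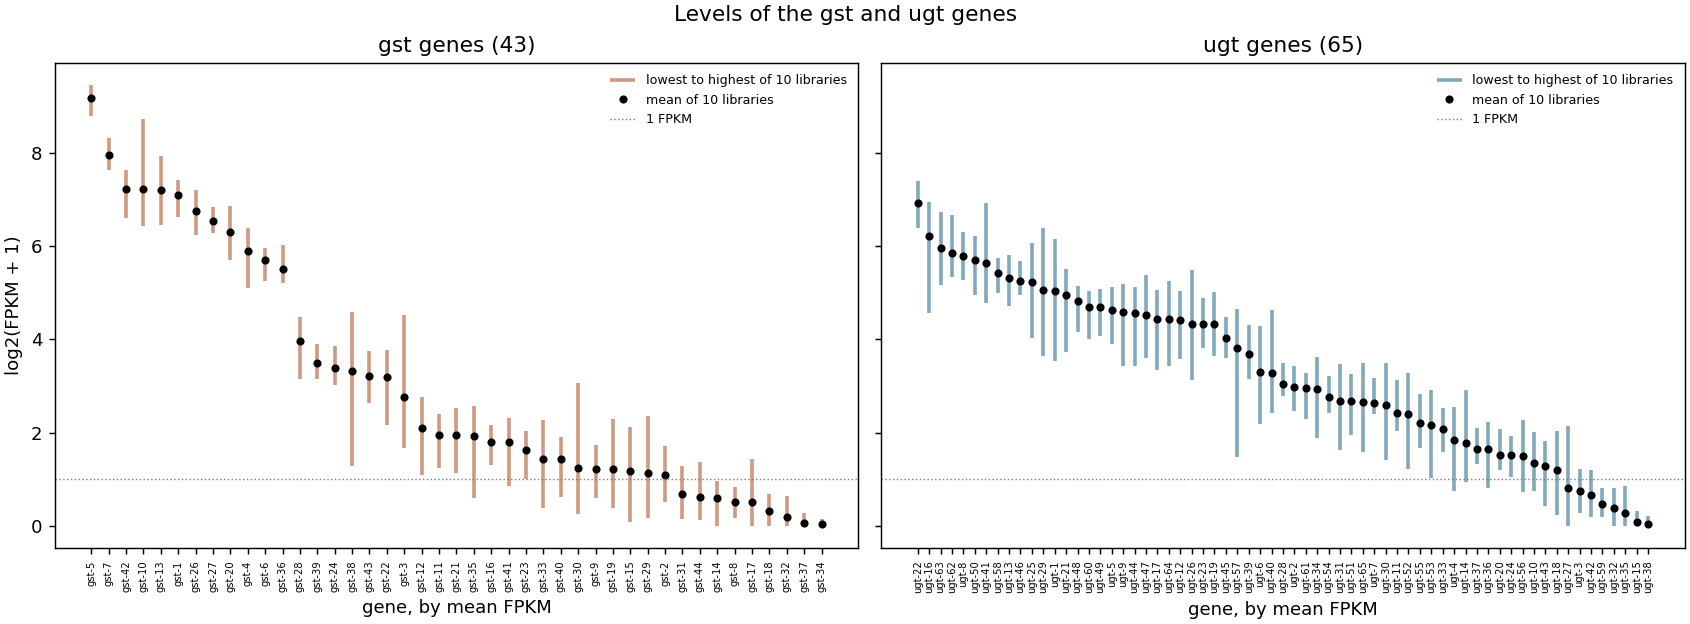
Level of each gst gene (left) and ugt gene (right) as log2(FPKM + 1), ordered by mean FPKM, with the mean of the 10 libraries as a point and a bar from the lowest to the highest library. The gst genes fall from 7 genes of 100 FPKM or more, through 7 genes of 10 to 100 FPKM, to 20 genes of 1 to 10 FPKM. The ugt genes fall in a slope with 29 genes of 10 to 100 FPKM.

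daf-2 worms at 25 °C had the highest level of all 10 libraries in 26 of the 96 genes, 27.1%, against 16.8% of all 16085 genes tested, and the lowest in 12 genes, 12.5%, against 10.8%. In 10 of the 96 genes, 10.4%, this library stood above all 9 others by at least 0.5 log2 units, against 4.48% of all genes. These were gst-3, gst-10, gst-15, gst-19, gst-29, ugt-11, ugt-14, ugt-27, ugt-40 and ugt-41, of which ugt-11 and ugt-41 were named after their values were seen. The only gene of the 96 below all others by that margin was ugt-16, against 1.36% of all genes.

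gst-10, whose enzyme conjugates the lipid peroxidation product 4-hydroxynonenal, lies on chromosome V from 2561705 to 2564574 (ce10). At 25 °C it had 143 FPKM in daf-16 daf-2, 172 FPKM in daf-2 math-33, 419 FPKM in daf-2, 96.3 FPKM in math-33 and 132 FPKM in N2 worms. At 15 °C it had 119.2 FPKM in daf-16 daf-2, 121.8 FPKM in daf-2 math-33, 85.1 FPKM in daf-2, 92.5 FPKM in math-33 and 104 FPKM in N2 worms. daf-2 worms were thus the highest of the 5 genotypes at 25 °C and the lowest at 15 °C. Against daf-2 worms at 25 °C the level was lower by 2.92-fold in daf-16 daf-2 (95% counting interval 2.75 to 3.11) and by 2.44-fold in daf-2 math-33 worms (2.30 to 2.59).

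gst-3 lies on chromosome IV, from 10139429 to 10140194, with gst-2 between it and gst-4. The 25 °C libraries had 3.26 FPKM in daf-16 daf-2, 7.33 FPKM in daf-2 math-33, 22.0 FPKM in daf-2, 2.59 FPKM in math-33 and 3.61 FPKM in N2 worms. Its 5 libraries at 15 °C lay between 2.16 FPKM, in daf-16 daf-2 worms, and 5.46 FPKM, in daf-2 math-33 worms. The daf-2 worms at 25 °C stood above all other libraries, and daf-2 math-33 worms at 25 °C came next.

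gst-4, the gene most often used as a reporter of SKN-1 activity, did not follow gst-3. The 25 °C levels were 33.2 FPKM in daf-16 daf-2, 68.1 FPKM in daf-2 math-33, 67.7 FPKM in daf-2, 81.1 FPKM in math-33 and 36.1 FPKM in N2 worms. The 15 °C levels were 56.6 FPKM in daf-16 daf-2, 82.5 FPKM in daf-2 math-33, 47.5 FPKM in daf-2, 65.3 FPKM in math-33 and 46.0 FPKM in N2 worms. The 4 libraries with math-33(tm3561) had the higher levels, and of the other 6 only daf-2 worms at 25 °C overlapped them.

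Among the ugt genes the same library stood out for ugt-40 and ugt-41, which lie near each other on chromosome V, between 7139583 and 7163546. ugt-41 had 38.2 FPKM in daf-16 daf-2, 45.4 FPKM in daf-2 math-33, 120 FPKM in daf-2, 26.3 FPKM in math-33 and 46.3 FPKM in N2 worms at 25 °C, and between 28.6 and 58.8 FPKM at 15 °C. ugt-40 had 7.74 FPKM in daf-16 daf-2, 7.93 FPKM in daf-2 math-33, 23.8 FPKM in daf-2, 6.50 FPKM in math-33 and 4.94 FPKM in N2 worms at 25 °C, and between 4.34 and 9.88 FPKM at 15 °C. For both genes daf-2 worms were the highest of the 5 genotypes at 15 °C as well, by a smaller margin. Of the genes near them, ugt-39 and ugt-36 also had their highest level of all 10 libraries in daf-2 worms at 25 °C. ugt-39 had 18.8 FPKM there and at most 14.7 FPKM elsewhere. ugt-36 had 3.65 FPKM there and at most 3.37 FPKM elsewhere, and ugt-37 was not highest there.

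A second set of ugt genes ran the other way in daf-2 worms at 25 °C. ugt-16 had 71.9 FPKM in daf-16 daf-2, 51.7 FPKM in daf-2 math-33, 22.6 FPKM in daf-2, 40.99 FPKM in math-33 and 77.6 FPKM in N2 worms at 25 °C, and between 74.9 FPKM, in daf-2, and 123 FPKM, in daf-16 daf-2 worms, at 15 °C. ugt-30 had 9.21 FPKM in daf-16 daf-2, 5.76 FPKM in daf-2 math-33, 1.64 FPKM in daf-2, 6.36 FPKM in math-33 and 10.3 FPKM in N2 worms at 25 °C. ugt-47 had 29.7 FPKM in daf-16 daf-2, 25.7 FPKM in daf-2 math-33, 11.04 FPKM in daf-2, 27.9 FPKM in math-33 and 40.3 FPKM in N2 worms at 25 °C. ugt-16, ugt-30 and ugt-47 each had their lowest level of all 10 libraries in daf-2 worms at 25 °C.

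ugt-26 also had its lowest level at 25 °C in daf-2 worms. At that temperature it had 44.1 FPKM in daf-16 daf-2, 25.5 FPKM in daf-2 math-33, 11.8 FPKM in daf-2, 24.7 FPKM in math-33 and 25.6 FPKM in N2 worms. At 15 °C it had 17.01 FPKM in daf-16 daf-2, 11.4 FPKM in daf-2 math-33, 15.8 FPKM in daf-2, 8.37 FPKM in math-33 and 7.71 FPKM in N2 worms. It was higher at 25 °C than at 15 °C in every genotype but daf-2.

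**Figure D2:**
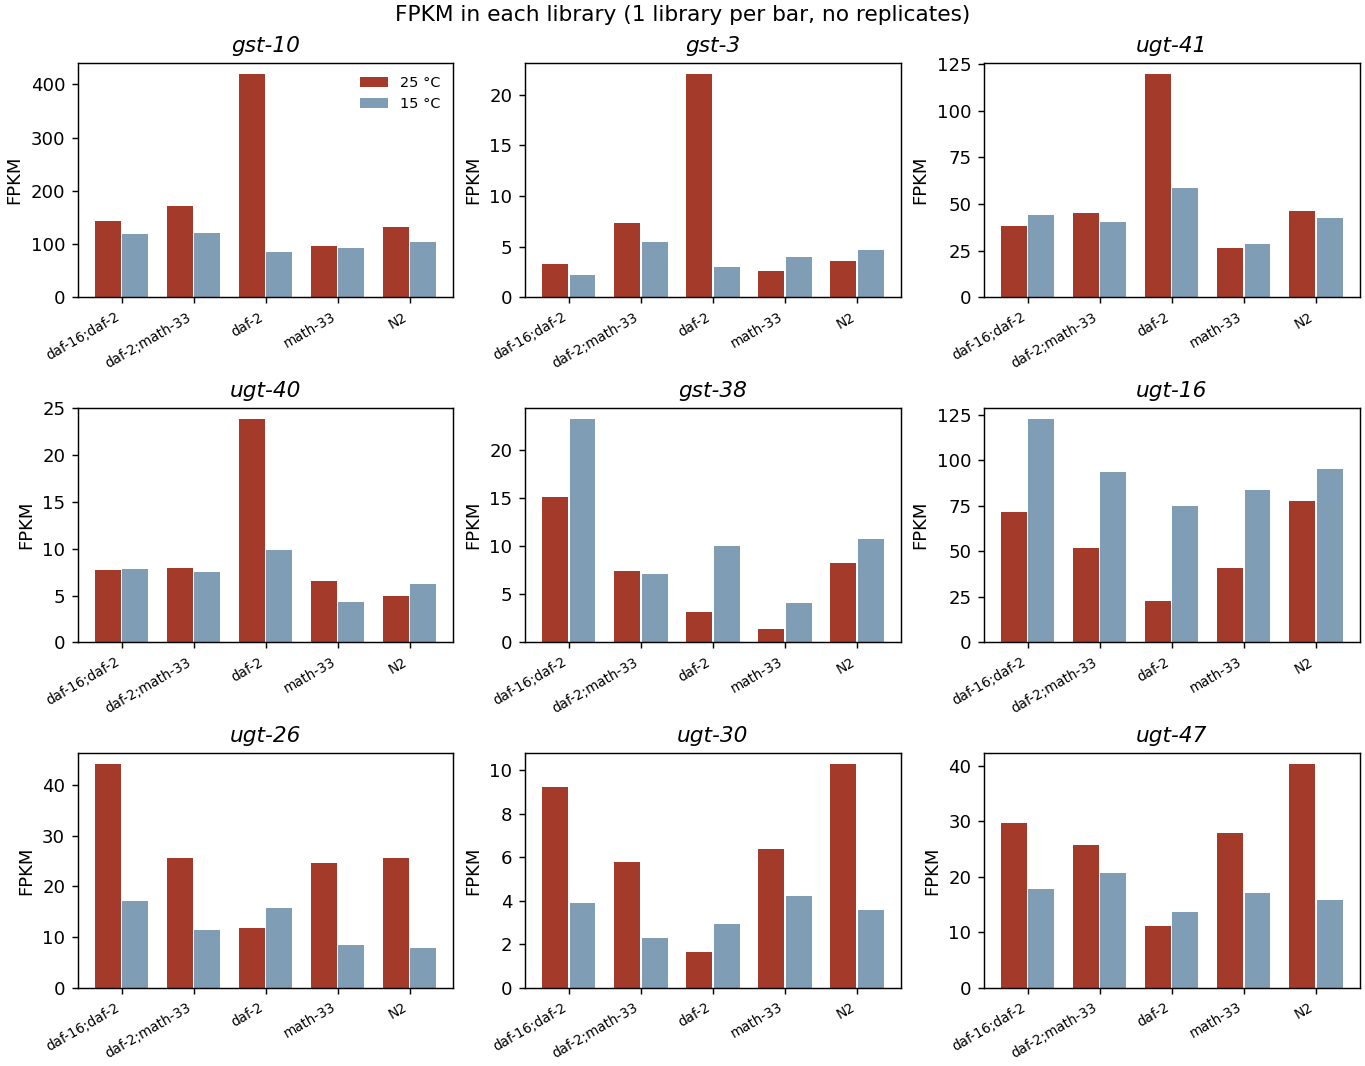
FPKM of 9 gst and ugt genes in each library, 1 bar per library without replicates, with 25 °C in red and 15 °C in blue for each genotype. gst-10, gst-3, ugt-41 and ugt-40 peak in daf-2 worms at 25 °C (419, 22.0, 120 and 23.8 FPKM), and ugt-16, ugt-30 and ugt-47 have their lowest bar there (22.6, 1.64 and 11.04 FPKM).

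Without daf-16, 10 of the 96 genes were higher at 25 °C in daf-16 daf-2 than in daf-2 worms by at least 1 log2 unit on the log2(FPKM + 1) scale, against 5.09% of all genes, and 11 were lower, against 7.06%. The median difference was -0.14 over the 96 genes and 0.00 over all genes. Of 36 gst genes 2 were higher and 7 lower, with a median of -0.31, and of 60 ugt genes 8 were higher and 4 lower, with a median of -0.10. A difference between the families was not tested. The largest differences downward were those of gst-3, at -2.43, and gst-29, at -1.69, and the largest upward those of ugt-30 and gst-38, both at 1.95. Oocyte markers summed to 522 FPKM in daf-16 daf-2 and 317 FPKM in daf-2 worms, intestinal markers to 5377 FPKM in daf-16 daf-2 and 4040.4 FPKM in daf-2 worms, and their part in these differences was not tested. At this temperature gst-29 had 0.591 FPKM in daf-16 daf-2, 0.810 FPKM in daf-2 math-33 and 4.14 FPKM in daf-2 worms.

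At 15 °C fewer of the 96 genes differed between these strains than at 25 °C, where the shares of all genes were 5.09% higher and 7.06% lower. Of the 96 genes, 5 were higher by at least 1 log2 unit in daf-16 daf-2 than in daf-2 worms, against 5.43% of all genes, and 2 were lower, against 4.15%. The genes named by size were gst-33, with 2.65 FPKM in daf-16 daf-2 and 0.312 FPKM in daf-2 worms, and ugt-65, with 10.2 FPKM in daf-16 daf-2 and 3.73 FPKM in daf-2 worms. In the other direction gst-29 had 0.440 FPKM in daf-16 daf-2 and 2.45 FPKM in daf-2 worms. gst-15 had 0.0620 FPKM in daf-16 daf-2 and 1.42 FPKM in daf-2 worms. The lower values rest on few read pairs, 3.5 for gst-33 in daf-2 worms. In daf-16 daf-2 worms they were 3.5 for gst-29 and 0.5 for gst-15. gst-29 was thus lower in daf-16 daf-2 than in daf-2 worms at both temperatures. gst-38 had 15.1 FPKM in daf-16 daf-2 and 3.17 FPKM in daf-2 worms at 25 °C, and 23.2 FPKM in daf-16 daf-2 and 10.1 FPKM in daf-2 worms at 15 °C, so it was higher without daf-16 at both.

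Between daf-2 math-33 and daf-2 worms at 25 °C, 17 of the 96 genes lay at least 1 log2 unit apart, against 16.1% of all genes. Of these 9 were higher, against 1764 of the 16085 genes, and 8 were lower, against 5.13%. The median difference was -0.04 over the 96 genes and 0.06 over all genes. Of the gst genes 1 was higher and 4 were lower, and of the ugt genes 8 were higher and 4 lower. By size the genes were ugt-34 (1.60) and ugt-30 (1.35) upward, and gst-29 (-1.51) and ugt-40 (-1.47) downward. Sperm markers summed to 407 FPKM in daf-2 math-33 and 109 FPKM in daf-2 worms, with 4 of 6 higher by at least 1 log2 unit. Hypodermal and cuticle markers summed to 1068 FPKM in daf-2 math-33 and 1822 FPKM in daf-2 worms, with 2 of 8 lower by that margin, and oocyte markers to 433 FPKM in daf-2 math-33 and 317 FPKM in daf-2 worms. The part of these cell types in the gst and ugt levels was not tested. This comparison shares its daf-2 library with that of daf-16 daf-2 against daf-2 worms, and the per-library levels above serve both.

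ugt-34 separated the strains by math-33. At 25 °C it had 11.4 FPKM in daf-2 math-33 and 10.2 FPKM in math-33 worms, against 3.08 FPKM in daf-2 and 2.68 FPKM in N2 worms. At 15 °C it had 9.38 FPKM in daf-2 math-33 and 11.3 FPKM in math-33 worms, against 3.43 FPKM in daf-2 and 6.56 FPKM in N2 worms. All 4 libraries with math-33(tm3561) lay above the other 6, of which the daf-16 daf-2 worms had 2.76 FPKM at 25 °C and 5.31 FPKM at 15 °C.

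At 15 °C, 2 of the 96 genes were higher by at least 1 log2 unit in daf-2 math-33 than in daf-2 worms, against 8.80% of all genes, and 2 were lower, against 1.97%. The higher ones were ugt-52 and ugt-34. ugt-52 had 5.04 FPKM in daf-2 math-33 and 1.33 FPKM in daf-2 worms, and daf-2 worms at 15 °C had its lowest level of the 10 libraries. The lower ones were ugt-29, with 17.3 FPKM in daf-2 math-33 and 54.3 FPKM in daf-2 worms, and ugt-18, with 0.491 FPKM in daf-2 math-33 and 2.37 FPKM in daf-2 worms.

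ugt-29 varied over a wide range and in an order of its own. In the 25 °C libraries it had 49.4 FPKM in daf-16 daf-2, 25.4 FPKM in daf-2 math-33, 15.0 FPKM in daf-2, 20.6 FPKM in math-33 and 27.7 FPKM in N2 worms. In the 15 °C libraries it had 83.1 FPKM in daf-16 daf-2, 17.3 FPKM in daf-2 math-33, 54.3 FPKM in daf-2, 11.5 FPKM in math-33 and 17.4 FPKM in N2 worms. daf-2 worms were the lowest genotype at 25 °C and above N2 worms at 15 °C, where the difference of 1.59 was the largest among the 96 genes between these strains.

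In math-33 single mutants against N2 at 25 °C, 4 of the 96 genes were higher by at least 1 log2 unit, against 5.25% of all genes, and 8 were lower, against 7.16%. The median was -0.21 over the 96 genes, -0.01 for gst and -0.28 for ugt genes, and 0.03 over all genes. Of the gst genes 3 were higher and 1 was lower, and of the ugt genes 1 was higher and 7 were lower. The largest were gst-30 (2.52) and ugt-34 (1.61) upward, and gst-38 (-1.92) and ugt-57 (-1.53) downward. gst-30 had 7.31 FPKM in math-33 worms at 25 °C, and its 9 other libraries lay between 0.197 and 1.70 FPKM.

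math-33 worms at 25 °C had the lowest level of all 10 libraries in 28 of the 96 genes, 29.2%, against 19.5% of all genes. ugt-57 had 1.76 FPKM in math-33 and 7.001 FPKM in N2 worms at 25 °C, and gst-38 had 1.43 FPKM in math-33 and 8.22 FPKM in N2 worms. In the same library markers of the hypodermis and cuticle summed to 339 FPKM, against 1160.4 FPKM in N2 worms, with 5 of 8 markers lower by at least 1 log2 unit and a median of -1.64. Oocyte markers summed to 1143 FPKM in math-33 worms at 25 °C and 680.1 FPKM in N2 worms, and intestinal markers to 3638 FPKM in math-33 worms and 4445 FPKM in N2 worms. The part of these cell types in the gst and ugt levels was not tested.

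At 15 °C, 3 of the 96 genes were higher by at least 1 log2 unit in math-33 than in N2 worms, against 11.5% of all genes, and 1 was lower, against 2.79%. Subtracting each library's median leaves 0 higher, against 8.81% of all genes so scaled, and 4 lower, against 4.96%, since the library medians of math-33 and N2 worms differ by 0.23. The gene lower at both temperatures was gst-38, with 4.05 FPKM in math-33 and 10.7 FPKM in N2 worms at 15 °C. The higher ones were ugt-64, with 30.2 FPKM in math-33 and 13.4 FPKM in N2 worms, gst-9, with 2.18 FPKM in math-33 and 0.509 FPKM in N2 worms, and gst-33, with 3.85 FPKM in math-33 and 1.38 FPKM in N2 worms.

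In daf-2 worms at 25 °C, 17 of the 96 genes were higher than in N2 worms by at least 1 log2 unit, against 9.33% of all genes, and 8 were lower, against 9.28%. The median was 0.21 over the 96 genes, 0.35 for gst and 0.13 for ugt genes, and -0.03 over all genes. Of the gst genes 8 were higher and 2 lower, and of the ugt genes 9 were higher and 6 lower. The largest were gst-3 (2.32) and ugt-27 (2.13) upward, and ugt-30 (-2.09) and ugt-47 (-1.78) downward.

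ugt-27, which lies between ugt-26 and ugt-28 on chromosome I, had 3.38 FPKM in daf-2 worms at 25 °C and no read pair in N2 worms at 25 °C. Set against an assumed floor of 3 read pairs in the N2 library, the daf-2 level was 24.6-fold higher. That ratio is not a minimum, since the lower limit of the counting interval of the fold was 19.6. In the same comparison oocyte markers were lower in daf-2 worms, at a sum of 317 FPKM in daf-2 and 680.1 FPKM in N2 worms, with 5 of 5 lower by at least 1 log2 unit. Sperm markers summed to 109 FPKM in daf-2 and 320 FPKM in N2 worms, with 3 of 6 lower by that margin. Hypodermal and cuticle markers had the higher sum in daf-2 worms, at 1822 FPKM in daf-2 and 1160.4 FPKM in N2 worms, with 2 of 8 higher by that margin. Over both temperatures the median limma estimate of that list for daf-2 minus N2 was -0.12. Intestinal markers summed to 4040.4 FPKM in daf-2 worms and 4445 FPKM in N2 worms. Their part in the gst and ugt levels was not tested.

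At 15 °C, 4 of the 96 genes were higher by at least 1 log2 unit in daf-2 than in N2 worms, against 2.92% of all genes, and 0 were lower, against 2.85%. Of these ugt-29 and gst-19 were the largest. gst-19 had 2.01 FPKM in daf-2 and 0.304 FPKM in N2 worms at 15 °C, and 3.88 FPKM in daf-2 and 0.523 FPKM in N2 worms at 25 °C, so daf-2 worms had the higher level at both temperatures.

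**Figure D3:**
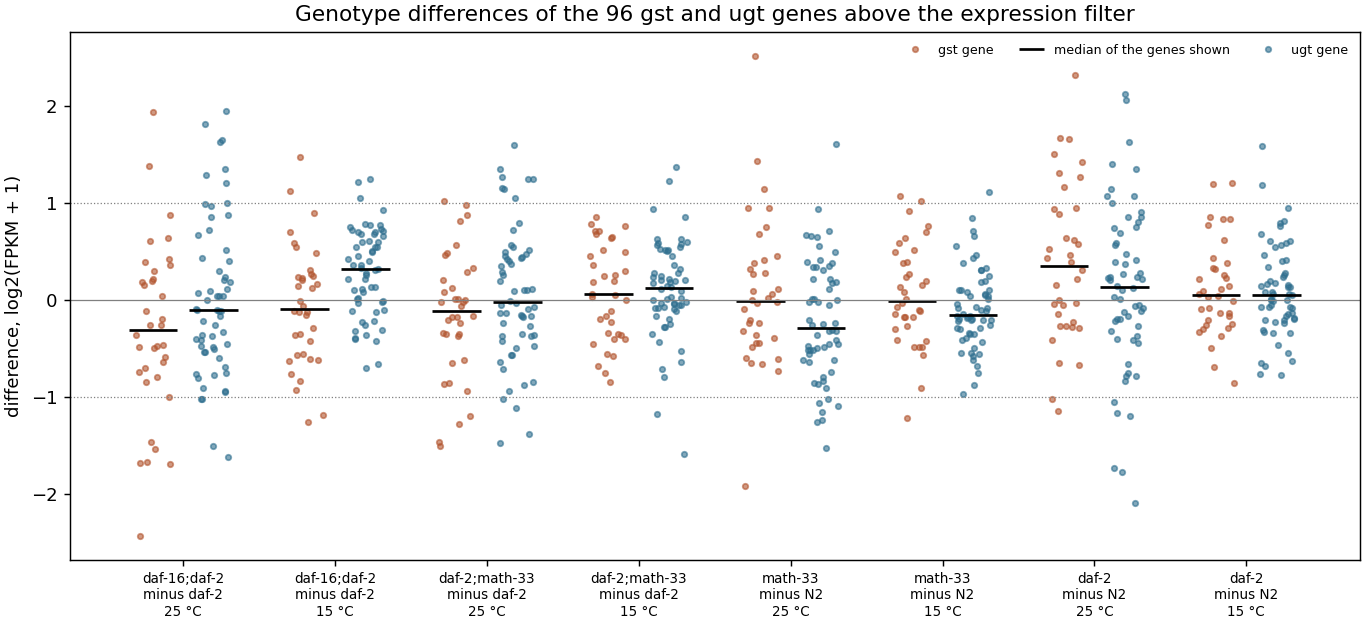
Difference between genotypes in log2(FPKM + 1) for each of the 96 genes above the expression filter, gst in orange and ugt in blue, with a black bar at each family's median and dotted lines at 1 log2 unit either way. The gst median lies at -0.31 for daf-16 daf-2 minus daf-2 and at 0.35 for daf-2 minus N2 at 25 °C, and the clouds at 15 °C are narrower.

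A limma fit of genotype and temperature was made over the 10 libraries, without an interaction between them. Over both temperatures limma called none of the 96 genes for any genotype difference at an adjusted p under 0.05 over all 16085 genes. A genotype difference at only 1 temperature is averaged over both in this fit and adds to the residual spread. For gst-10, daf-2 minus N2 was 1.66 at 25 °C and -0.29 at 15 °C, and the limma estimate was 0.69 ± 0.49 (SE). For daf-16 daf-2 minus daf-2, 13 genes were higher, against 4.93% of all genes, and 9 lower, against 7.28%, at an unadjusted p under 0.05. The lowest limma adjusted p was 0.190, for gst-7 (-0.61 ± 0.11, estimate and SE). For daf-2 math-33 minus daf-2 the unadjusted counts were 9 higher, against 10.8%, and 6 lower, against 4.25%, and the lowest limma adjusted p was 0.152, for ugt-34 (1.41 ± 0.33). For math-33 minus N2 they were 4 higher, against 12.4%, and 10 lower, against 5.95%, and the lowest limma adjusted p was 0.0687, for ugt-9 (-1.02 ± 0.17). For daf-2 minus N2 they were 12 higher, against 7.47%, and 7 lower, against 6.14%, and the lowest limma adjusted p was 0.243, shared by gst-19 (1.44 ± 0.34) and ugt-39 (0.86 ± 0.21). Across all genes the adjusted calls were few as well. They were 0.00622% higher and 0.0311% lower for daf-16 daf-2 minus daf-2, 0.00% and 0.0124% for daf-2 math-33 minus daf-2, 0.348% and 0.0933% for math-33 minus N2, and 0.00% each way for daf-2 minus N2.

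Whether the loss of math-33 went with different changes in daf-2 and in wild-type worms was tested as a difference between the effects. None of the 96 genes passed the limma test at an adjusted p under 0.05, and none of all 16085 genes did (0.00% each way). At an unadjusted p under 0.05, 9 of the 96 genes had the more positive effect in the daf-2 background, against 4.69% of all genes, and 0 had the more negative one, against 3.95%. Of the 9 genes 3 were gst and 6 were ugt genes.

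A genotype term with 1 library per temperature depends on both libraries. When the 15 °C daf-2 library was left out, the daf-2 term rested on 1 library. It is the library in which gst-10, gst-3, ugt-40, ugt-41 and ugt-16 stood out above. Such a fit has no daf-2 replicate, so only its estimates are given and no call is drawn from it. For gst-10 they were -1.53 for daf-16 daf-2 minus daf-2, -1.38 for daf-2 math-33 minus daf-2 and 1.69 for daf-2 minus N2. For ugt-41 they were -1.52, -1.46 and 1.42, in the same order. For daf-16 daf-2 minus daf-2, gst-3 had -2.65, ugt-16 had 1.65 and ugt-26 had 1.84. For daf-2 minus N2, ugt-16 had -1.52 and ugt-40 had 1.89. Without the 15 °C math-33 library, math-33 minus N2 was 2.45 for gst-30 and -1.72 for ugt-57, again from 1 math-33 library. With library medians subtracted, ugt-9 was the 1 member called for math-33 against N2 worms, where it fell (-1.13, limma adjusted p = 0.0383), and 0 members rose. Of all genes so scaled limma called 0.342% higher and 0.211% lower.

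Temperature was the factor for which members passed the test with all libraries in. All 10 libraries enter the temperature difference and fewer enter a genotype difference, so its SE is smaller. For ugt-9 the limma estimate was -0.58 ± 0.11 (SE) for temperature and -1.02 ± 0.17 for math-33 minus N2. The calls therefore do not rank temperature against genotype. At 25 °C against 15 °C, 8 of the 96 genes rose, against 14.6% of all genes, and 9 fell, against 4.68%, by limma at an adjusted p under 0.05. All 8 that rose and 8 of the 9 that fell were ugt genes, and gst-26 was the only gst gene. The median was 0.01 over the 96 genes and 0.09 over all genes. The median of a library was 0.17 higher at 25 °C than at 15 °C on average, and after subtraction of library medians 5 genes rose, against 8.59% of all genes so scaled, and 17 fell, against 10.8%.

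ugt-17 was higher at 25 °C in every genotype. At 25 °C it had 32.1 FPKM in daf-16 daf-2, 24.7 FPKM in daf-2 math-33, 27.6 FPKM in daf-2, 17.4 FPKM in math-33 and 31.8 FPKM in N2 worms. At 15 °C it had 18.9 FPKM in daf-16 daf-2, 15.3 FPKM in daf-2 math-33, 15.0 FPKM in daf-2, 9.08 FPKM in math-33 and 15.2 FPKM in N2 worms. math-33 worms had the lowest level at either temperature. The limma estimate was 0.82 ± 0.10 (SE), with an adjusted p of 0.00727. It is also the only one of the 17 genes whose call held under each of the 10 fits that left out a library and each of 7 other settings.

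ugt-1 was lower at 25 °C in every genotype. The levels at 25 °C were 17.1 FPKM in daf-16 daf-2, 17.7 FPKM in daf-2 math-33, 18.4 FPKM in daf-2, 10.6 FPKM in math-33 and 22.4 FPKM in N2 worms. The levels at 15 °C were 70.5 FPKM in daf-16 daf-2, 35.0 FPKM in daf-2 math-33, 42.6 FPKM in daf-2, 40.1 FPKM in math-33 and 42.6 FPKM in N2 worms. The 5 libraries at 25 °C did not overlap the 5 at 15 °C. The limma estimate was -1.37 ± 0.19 (SE), with an adjusted p of 0.00823, and the call held under each of the 10 fits that left out a library.

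The other genes that rose were ugt-53 (1.29), ugt-6 (1.21), ugt-26 (1.02), ugt-14 (0.88), ugt-4 (0.76), ugt-23 (0.64) and ugt-45 (0.51), given as limma estimates. Their adjusted p lay between 0.0168, for ugt-53, and 0.0498, for ugt-45. ugt-53 had between 2.04 and 6.55 FPKM at 25 °C and between 1.05 and 2.47 FPKM at 15 °C, with daf-2 worms the lowest at 25 °C and apart from the other 4 genotypes, the next of which had 5.999 FPKM. The other genes that fell were ugt-57 (-1.24), ugt-16 (-0.92), ugt-21 (-0.89), ugt-25 (-0.79), ugt-19 (-0.62), ugt-9 (-0.58), ugt-60 (-0.44) and gst-26 (-0.43). Their limma adjusted p lay between 0.0140, for gst-26, and 0.0340, for ugt-25. Without either daf-2 math-33 library only ugt-17 and ugt-1 kept their calls.

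**Figure D4:**
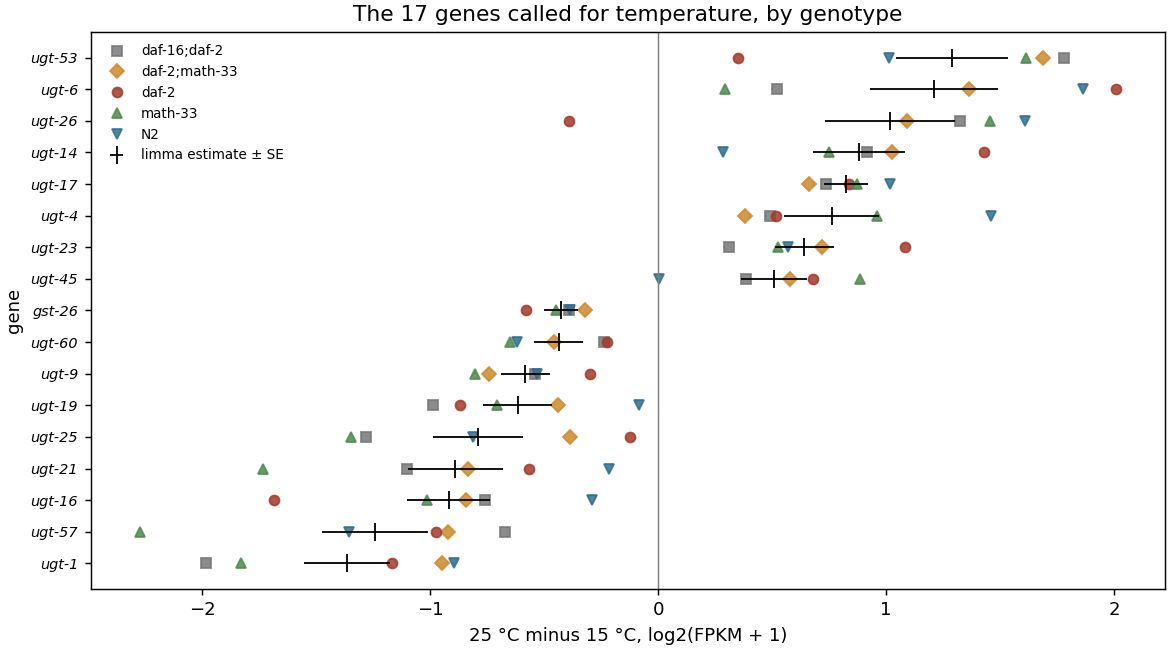
Difference between 25 °C and 15 °C in log2(FPKM + 1) for the 17 genes that passed the temperature test, 1 symbol per genotype, with the limma estimate as a vertical tick and its SE as a bar. ugt-17 has its 5 genotypes closest together among the genes that rose (estimate 0.82), ugt-26 has daf-2 worms on the other side of 0, and ugt-1 (-1.37) lies at the bottom.

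Counted by direction alone, 14 of the 96 genes were higher at 25 °C in all 5 genotypes, against 22.6% of all genes, and 15 were lower in all 5, against 1762 of the 16085 genes. Together these were 29 of the 96 genes, against 33.6% of all genes. Within genotypes the daf-2 worms had the most genes past 1 log2 unit between the temperatures, with 15 higher at 25 °C, against 11.7% of all genes, and 5 lower, against 3.72%. gst-3 (2.52) and gst-10 (2.29) were the largest upward there, and ugt-29 (-1.79) and ugt-16 (-1.69) downward. In N2 worms 7 were higher, against 13.3%, and 5 lower, against 3.82%, with ugt-6 (1.86) and ugt-26 (1.61) upward and gst-12 (-1.42) and gst-22 (-1.36) downward. The counts were 5 higher and 5 lower in daf-16 daf-2 worms (10.2% and 4.19% of all genes), 8 and 0 in daf-2 math-33 worms (10.1% and 3.27%), and 3 and 6 in math-33 worms (6.63% and 6.73%).

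Markers of several tissues moved with temperature. Oocyte markers rose, 5 of 5 by limma with a median of 0.85, and summed to between 317 and 1143 FPKM at 25 °C and between 198 and 554 FPKM at 15 °C. Of 6 sperm markers 3 rose, and they summed to between 109 and 407 FPKM at 25 °C and between 51.1 and 293 FPKM at 15 °C. Of 7 intestinal markers 2 fell by limma, elt-2 and asp-1, with a median of -0.34, and the list summed to between 3638 and 5377 FPKM at 25 °C and between 4555.5 and 6516 FPKM at 15 °C. Of 8 hypodermal and cuticle markers 1 fell, with sums between 339 and 1822 FPKM at 25 °C and between 1047 and 1976 FPKM at 15 °C. Of the body muscle markers 3 of 6 fell (myo-3, unc-22 and unc-54), of the pharynx markers 2 of 4 (myo-1 and myo-2), of the neuron markers 2 of 6 (rab-3 and ric-4) and of the excretory cell markers 1 of 3 (vha-5), by limma. Of the germline and coelomocyte markers 0 passed. The part of these tissues in the temperature differences of the ugt genes was not tested.

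The families sit in clusters. Of the 43 gst genes 25 lie on chromosome II, and of the 65 ugt genes 41 lie on chromosome V. Joining neighbours of either family less than 20000 bases apart gave 16 clusters with 63 of the 108 genes, the largest holding 9 gst genes each at 13608178 to 13630817 and at 15163789 to 15185301 on chromosome II. Neighbours could differ widely in level, as mean levels in the second of these ran between 0.0330 FPKM and 107 FPKM.

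Patterns of neighbours across the libraries were compared by rank. Spearman's rho over the 10 libraries had a median of 0.13 over 98 pairs within clusters, against 0.07 over 4462 other pairs. These are descriptions over libraries that share temperature and depth, and reads of near-identical neighbours could have been split between them. ugt-43 and ugt-44 were the pair with the closest pattern among the clusters of 2 genes, at 0.81. In the ugt-36 to ugt-41 cluster the median was 0.48 over 10 pairs, and in the cluster of ugt-25 to ugt-28 it was 0.08 over 6 pairs.

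**Figure D5:**
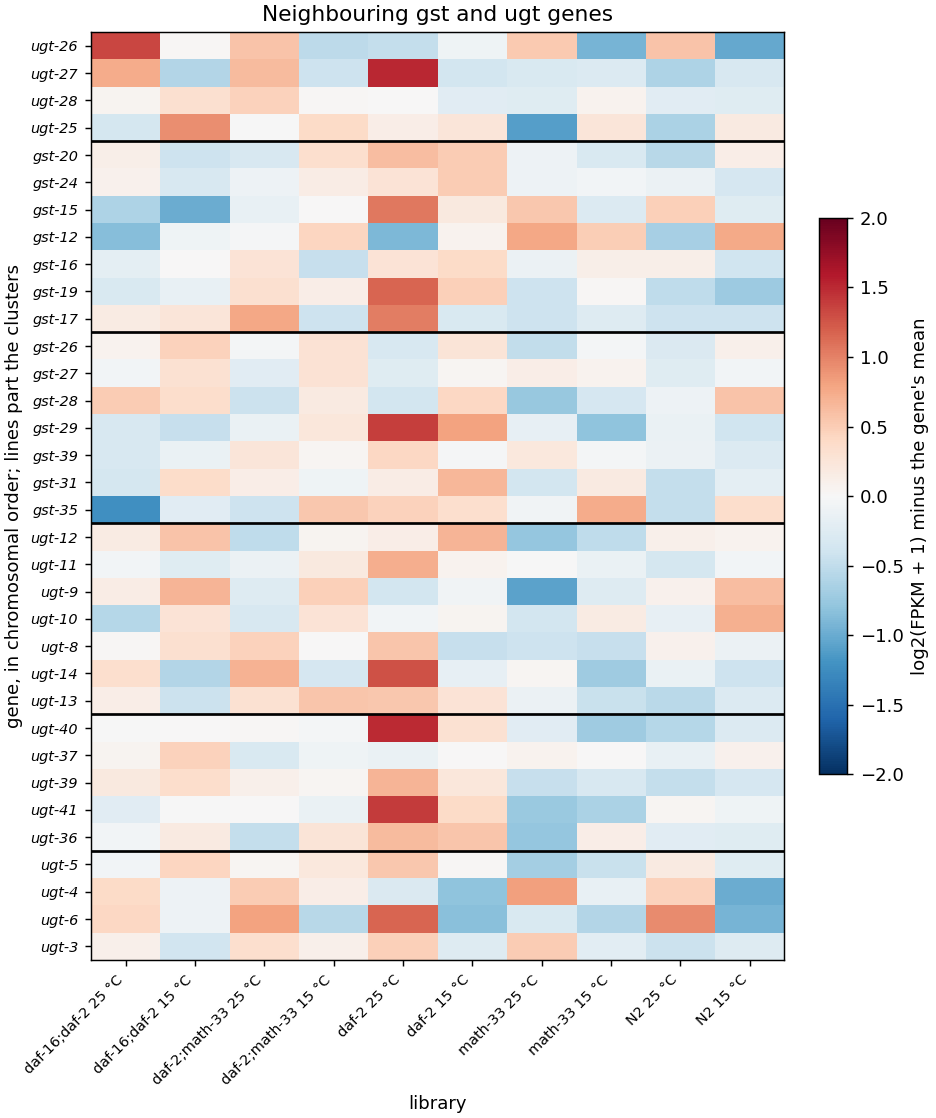
log2(FPKM + 1) minus the gene's mean over 10 libraries for genes above the filter in 6 clusters, in chromosomal order, with lines between clusters, red for levels above the mean and blue for levels below it. The daf-2 25 °C column is red for ugt-40 and ugt-41, and ugt-39, which lies between them, was also highest there. The column is near the mean for ugt-37, also between them, and red for ugt-27 but not for its neighbour ugt-26.

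Other genes of the pathway were read from lists. Of 25 tested genes of glutathione synthesis and other glutathione enzymes, 4 were higher in daf-2 than in N2 worms at 25 °C by at least 1 log2 unit, against 9.33% of all genes, and 0 lower, against 9.28%, with a median of 0.39 over the list and -0.03 over all genes. The largest was gstk-2, a kappa-class transferase, with 14.9 FPKM in daf-2 and 5.24 FPKM in N2 worms. With temperature 2 genes of the list rose, against 14.6% of all genes, and 1 fell, against 4.68%, by limma. The one that fell was gsto-1, an omega-class transferase whose symbol the rule did not take in, at -1.09 ± 0.12 (limma adjusted p = 0.00694).

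Of 9 genes that supply UDP-sugars, 0 passed 1 log2 unit in any genotype comparison, and 3 rose and 2 fell with temperature by limma, beside the same 14.6% and 4.68% of all genes. Of 23 tested regulators of phase II genes, 0 passed the limma test for a genotype. skn-1 itself had between 45.6 and 65.8 FPKM over the 10 libraries.

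The list of ABC transporters was drawn up for the export of conjugates, and whether each of its genes exports them was not tested. Of 32 tested genes of the list, 0 rose with temperature by limma, against 14.6% of all genes. With temperature 8 fell, against 4.68%, among them haf-4, haf-9 and pmp-1. The median was -0.29 over the list and 0.09 over all genes. The largest fall was that of pgp-14, at -1.05 ± 0.14 (limma adjusted p = 0.00823). pgp-5 and pgp-6 were the largest genotype differences of the list. pgp-5 had 27.8 FPKM in daf-16 daf-2, 13.4 FPKM in daf-2 math-33, 1.31 FPKM in daf-2, 7.33 FPKM in math-33 and 12.2 FPKM in N2 worms at 25 °C. pgp-6 had 27.97 FPKM in daf-16 daf-2, 17.2 FPKM in daf-2 math-33, 2.48 FPKM in daf-2, 16.9 FPKM in math-33 and 23.1 FPKM in N2 worms. As for ugt-30 and ugt-47, daf-2 worms had the lowest level of the 5 genotypes at 25 °C.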

How the data were processed

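RNA-seq of 10 libraries was analysed from 1 deposited table of FPKM per transcript. Per the labels' protocols, libraries were stranded, paired-end and made from poly(A) RNA with an RNA integrity number above 8. STAR, HOMER, edgeR and the ce10 build are named in the submitters' processing notes, with no version or role. The sources used here do not give the use of strand in counting or the handling of reads shared by duplicated genes. The FPKM values that the authors deposited rise in steps of 1 read, which gave between 12.6 and 17.6 M read pairs per library, with 100% of low values whole within rounding and 0.01%. That table also held 1104 transcripts without a name (1.72% to 1.97% of summed FPKM in a library), which were left out.

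Each gene was its transcript of the highest mean FPKM. The 16085 genes reaching 1 FPKM in 2 or more libraries were kept. Values were taken as log2(FPKM + 1), on which changes of low genes look smaller than they are. Pairs of libraries were compared without a test, at a threshold of 1 log2 unit, with exact 95% intervals of the fold that cover counting error only. limma 3.58.1 (R 4.3.3) was fitted with a trend to genotype plus temperature over 10 libraries, leaving 4 residual degrees of freedom, with Benjamini-Hochberg adjustment over all 16085 genes and a threshold of 0.05. It was also run on simulated data with independent noise and no effect of temperature. These held no interaction of genotype with temperature, so the run cannot check the fit where one exists. Nothing says that the 2 temperatures of a genotype came from separate cultures, and p-values measure only the spread between these libraries.

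The genes and lists were chosen with earlier results of these data known. Named were the 3 most abundant genes of each family, the 2 largest differences each way past 1 log2 unit in each genotype comparison and between temperatures in daf-2 and N2 worms, every gene that limma called and genes with a described role. Coordinates are those of the table, in ce10, and names of neighbours were checked against WBcel235 RefSeq loci. The alternatives were a pseudocount of 0.1, no filter, a filter of 5 FPKM, library medians subtracted, quantile normalization, the mean over transcripts, no mean-variance trend and leaving out each library.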

Additional observations from a re-analysis of the deposited data

Results flagged for a closer look

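The effect of losing math-33 on gst-38 at 25 °C had opposite signs in the 2 backgrounds. gst-38 was higher in daf-2 math-33 than in daf-2 worms by 1.02 on the log2(FPKM + 1) scale, with 7.47 FPKM in daf-2 math-33 and 3.17 FPKM in daf-2 worms. It was lower in math-33 than in N2 worms, at -1.92, with 1.43 FPKM in math-33 and 8.22 FPKM in N2 worms. The upward difference fell below 1 log2 unit after subtraction of library medians, at 0.89, and after quantile normalization, at 0.83. At 15 °C both differences were negative. They were -0.45 for daf-2 math-33 minus daf-2, with 7.09 FPKM in daf-2 math-33 and 10.1 FPKM in daf-2 worms, and -1.22 for math-33 minus N2, with 4.05 FPKM in math-33 and 10.7 FPKM in N2 worms. The difference between the effects was not tested at 25 °C, where each strain has 1 library. Over both temperatures it was 1.86 ± 0.50 (SE) with an unadjusted p of 0.00732 and a limma adjusted p of 0.536.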

How the results depend on the processing

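The limma fit already pairs the 25 °C and 15 °C libraries of a genotype through its genotype term. No paired analysis was possible beyond that, because each genotype has 1 library at each temperature. Each setting was compared with the reported counts, and 285 of the recomputed counts stayed within 1.5 times while 75 did not. No single gene changed sign among the values that passed a test, but more single-gene values became weaker than became stronger. Of the temperature calls, that of ugt-4 held in 0 of the 10 fits that left out a library. Those of ugt-6, ugt-14, ugt-19, ugt-25, ugt-26, ugt-45 and ugt-60 held in 2 of 10. ugt-17 and ugt-1 held in all 10, and the rest in 6 or 8. In the following, counts are of gst and ugt genes higher and lower by at least 1 log2 unit. Shares of all genes at the same settings are not set beside the counts of this section. A changed count is therefore not a result about these families. At a pseudocount of 0.1 low genes pass more easily: daf-16 daf-2 minus daf-2 gave 19 lower at 25 °C, and 12 higher and 6 lower at 15 °C. daf-2 math-33 minus daf-2 gave 5 higher and 5 lower at 15 °C. math-33 minus N2 gave 10 higher at 25 °C, and 9 higher and 3 lower at 15 °C. daf-2 minus N2 gave 11 higher and 2 lower at 15 °C. Between 25 °C and 15 °C it gave 9 higher and 10 lower in daf-16 daf-2, 5 lower in daf-2 math-33, 10 lower in daf-2, 10 higher and 13 lower in math-33, and 11 higher and 11 lower in N2 worms. The filter at 5 FPKM left fewer genes: daf-16 daf-2 minus daf-2 gave 5 lower at 25 °C and 0 lower at 15 °C, and daf-2 math-33 minus daf-2 gave 4 lower at 25 °C and 1 lower at 15 °C. math-33 minus N2 gave 1 higher at 15 °C, daf-2 minus N2 gave 8 higher at 25 °C and 2 higher at 15 °C, and between temperatures there were 3 higher and 3 lower in daf-16 daf-2 and 5 higher in daf-2 math-33 worms. Subtracting library medians, or quantile normalization, gave 0 higher and 4 lower for math-33 minus N2 at 15 °C by either, and for 25 °C minus 15 °C 3 higher in daf-16 daf-2 and 9 lower in N2 worms by either. In daf-2 math-33 worms these gave 2 higher and 6 lower by medians and 4 higher and 4 lower by quantiles, and in daf-2 worms 8 higher and 11 lower by medians and 7 higher and 10 lower by quantiles. Quantile normalization also gave 13 lower at 25 °C, and 1 higher and 5 lower at 15 °C, for daf-2 math-33 minus daf-2. The cause was not tested.

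For limma, 1 gene fell for math-33 minus N2 under either scaling. Temperature called 5 up and 17 down with medians subtracted, 5 up and 16 down with quantiles, 5 up at a pseudocount of 0.1, and 1 up and 0 down without a filter. Leaving out each library in turn called between 1 and 7 up and between 1 and 9 down for temperature. Genotype calls in these fits came only without the 15 °C daf-2 or the 15 °C math-33 library. Each such fit rests on the 1 remaining library of that genotype, so these calls are not counted here. Depth limits the low genes: 3 read pairs over a kilobase of transcript are between 0.170 and 0.238 FPKM.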
